A study of Rattus norvegicus with 6 samples.

Results

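Messenger RNA of 10 cytosolic and small heat shock chaperone genes was examined in cultured rat oligodendrocyte precursor cells with and without alpha-synuclein fibrils. The members were taken by gene symbol from the deposited expression table, where the 10 symbols occupied 11 of 32662 rows, because Hspa8 was listed on 2 rows. Of these 11 rows, 7 reached 1 FPKM or more in at least 3 of the 6 libraries and were tested among 10766 genes. FPKM, a fragment density along the gene relative to all mapped fragments, is a level corrected for gene length.

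The cells were primary precursor cells from the cerebral cortex of Sprague-Dawley rats aged 1 to 2 days. They were shed from mixed glial cultures grown with 20% serum and then kept for 4 to 5 days in Neurobasal medium with PDGF and FGF (10 ng/ml each) and 2% B27. The 3 control libraries came from cells left without fibrils, and the 3 fibril libraries from cells that received human alpha-synuclein, assembled into fibrils beforehand, for 72 hours. All other stated conditions were shared. No label says that libraries within a group came from separate animals or cultures. The p-values therefore measure spread between these 6 libraries alone, which may be technical.

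Cytosolic chaperones bind unfolded or aggregated proteins. Hsp70 proteins work in cycles of ATP hydrolysis that J-domain proteins start and nucleotide exchange factors end, Hsp90 proteins finish the folding of kinases and receptors, and small heat shock proteins hold unfolded chains without using ATP. The constitutive Hsp70 (Hspa8), the J-domain protein Dnajb1 and an Hsp110 exchange factor are known for taking apart alpha-synuclein fibrils in vitro. The inducible members are classical targets of heat shock factor 1, which binds inverted repeats of the triplet GAA, the heat shock element. Cryab is known as an abundant transcript of mature oligodendrocytes and of astrocytes, and its protein is found in the oligodendroglial inclusions of multiple system atrophy.

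Because several members are known targets of heat shock factor 1, the 250 bases before the annotated start were read from RefSeq promoters (build GRCr8), which held 8 of the 10 members; Hsp90aa1 and Cryab had no entry. Two-unit elements were searched as GAANNTTC and TTCNNGAA, each of which reads the same on both strands. Three-unit elements, which contain the two-unit ones, were searched as GAANNTTCNNGAA and its reverse complement TTCNNGAANNTTC. A two-unit element was present in 7 of 8 member promoters and in 13.5% of all 33469 promoters. A three-unit element was present in 2 of 8, Hspa8 and Hsph1, and in 0.663% of all. Hsp90ab1 held neither. Bag3, Dnaja1, Dnajb1 and Hspb8 held 1 two-unit element each. Of 55 promoters of other chaperone genes listed further on, 11 held a two-unit and 2 a three-unit element. The 4 windows below show the 2 members with three-unit elements, the most abundant member, which had none, and a member near 0 FPKM that had 2 two-unit elements. They are written 5′ to 3′ on the gene's strand with the elements in capitals.
Hspa8 (chr8:50080264-50080513, plus strand): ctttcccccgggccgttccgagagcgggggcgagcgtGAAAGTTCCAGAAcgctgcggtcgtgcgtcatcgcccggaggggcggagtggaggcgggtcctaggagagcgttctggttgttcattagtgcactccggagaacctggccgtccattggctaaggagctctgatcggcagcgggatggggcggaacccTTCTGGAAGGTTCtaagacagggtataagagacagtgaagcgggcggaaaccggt
Hsph1 (chr12:10427118-10427367, plus strand): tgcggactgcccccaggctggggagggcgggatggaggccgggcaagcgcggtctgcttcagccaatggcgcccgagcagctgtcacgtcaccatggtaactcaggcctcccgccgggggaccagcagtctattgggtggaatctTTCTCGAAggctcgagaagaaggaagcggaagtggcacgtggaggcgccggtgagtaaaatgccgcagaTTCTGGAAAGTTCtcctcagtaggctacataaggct
Hsp90ab1 (chr9:22930173-22930422, plus strand): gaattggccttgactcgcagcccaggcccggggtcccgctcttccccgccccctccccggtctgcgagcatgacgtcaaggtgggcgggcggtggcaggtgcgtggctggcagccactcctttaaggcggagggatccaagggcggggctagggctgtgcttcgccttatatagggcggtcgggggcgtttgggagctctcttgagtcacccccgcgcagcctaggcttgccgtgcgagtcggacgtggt
Hspb1 (chr12:26432302-26432551, minus strand): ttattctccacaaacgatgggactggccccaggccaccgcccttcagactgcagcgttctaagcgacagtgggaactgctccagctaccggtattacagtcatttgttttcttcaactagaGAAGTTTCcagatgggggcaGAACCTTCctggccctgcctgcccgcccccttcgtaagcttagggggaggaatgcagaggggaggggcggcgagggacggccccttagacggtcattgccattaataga
In Hspa8 the three-unit elements began at positions -213 and -55 from the start, and in Hsph1 the three-unit element began at -36 with a further two-unit element at -105. The elements of Hspb1 began at -129 and -109. A match describes these letters only and shows no binding.

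Replicate 1 of both groups stood apart, and values from it are the least precise. Set to 1 in control replicate 2, the FPKM worth of a single fragment was 4.04 in control replicate 1 and 6.97 in fibril replicate 1, and it was 0.817 to 1.96 elsewhere. The mitochondrial share of summed FPKM was 80.3% (control) and 75.6% (fibril) for replicate 1 and lay between 12.0% and 40.1% for the remaining libraries. Between 11518 and 14219 genes were above 0 per library. All 9 precursor markers were tested, with summed levels of 1540 to 2551 FPKM in controls and 1269 to 1500 FPKM with fibrils. Markers of the labelled cell type were thus found in every library. With fibrils 7 of the 9 were lower and 2 higher (median difference in log2(FPKM + 1), fibril minus control, -0.41). Genes listed as markers of other cell types were also detected. The summed level of 11 microglia and macrophage markers ran from 1.5 to 46.4 FPKM in the control and from 11.9 to 61.7 FPKM in the fibril group. That of 8 neuronal markers ran from 286 to 607 FPKM and from 127 to 412 FPKM. Map2 (55.1 to 454 FPKM) and Dcx (16.7 to 92.7 FPKM) supplied most of the neuronal sum, which gives no share of neurons.

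The chaperone genes covered an abundant, an intermediate and a low range of level, each with the same genes in the control and the fibril libraries, and 0 of them rose or fell past the test. Hsp90ab1, Hspa8 and Dnaja1 were abundant, with 69.3 FPKM or more in every library. Hsph1 and Dnajb1 lay between 8.73 and 23.5 FPKM. Hsp90aa1 and Cryab did not exceed 6.43 FPKM, and Bag3, Hspb8 and Hspb1 stayed below 1 FPKM. Ordered by mean level over the 6 libraries, the genes were Hsp90ab1 (582 FPKM), Hspa8 (266), Dnaja1 (126), Hsph1 (18.8), Dnajb1 (14.6), Hsp90aa1 (3.60), Cryab (1.68), Bag3 (0.493), Hspb8 (0.308) and Hspb1 (0.192). The lowest Dnaja1 value (83.5 FPKM) lay above the highest of Hsph1 (23.5 FPKM), and the lowest of Dnajb1 (8.73 FPKM) above the highest of Hsp90aa1 (6.43 FPKM). All other neighbours in this order overlapped. By limma without a block, 0 of the 7 tested members passed an adjusted p of 0.05, beside 0 of all 10766 genes (0%), and 1 member (Cryab) had an unadjusted p under 0.05, beside 4.02% of all genes. With the replicate number as a block, limma again called 0 of 7 members, beside 0.111% of all genes. The smallest adjusted p among the members was 0.96 without and 0.424 with the block, both for Cryab.

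**Figure D1:**
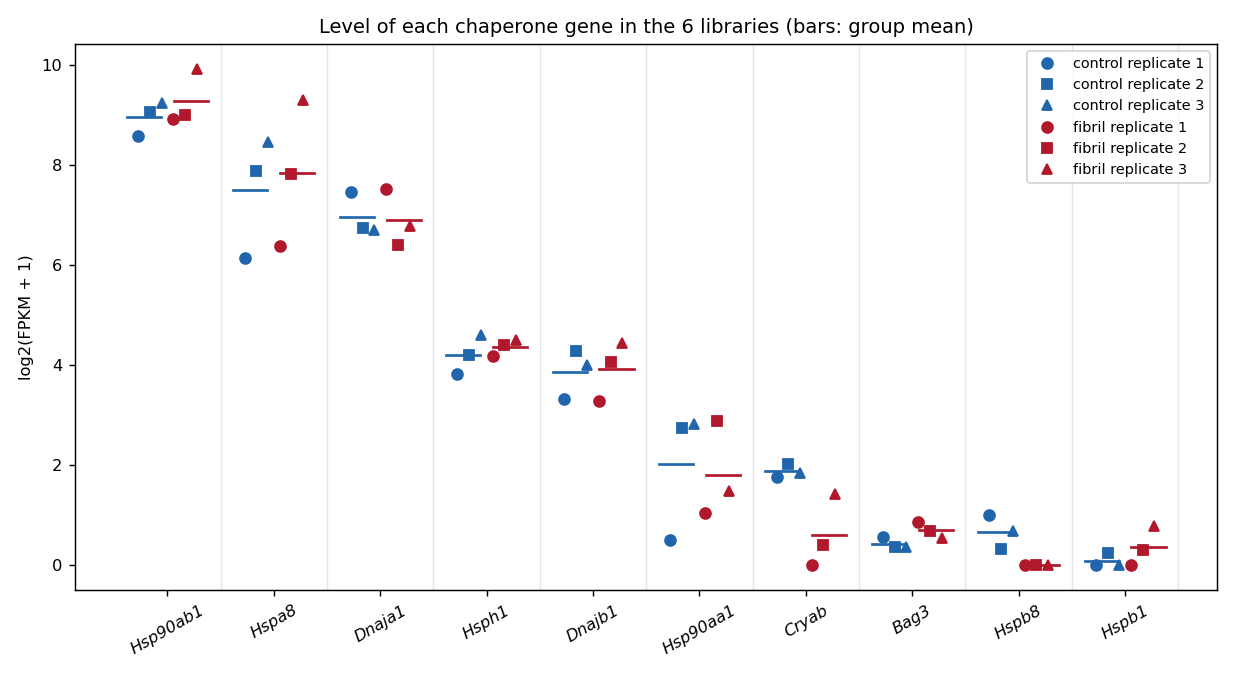
Level of each of 10 chaperone genes as log2(FPKM + 1), 1 point per library; controls are blue, fibril libraries are red, the symbol gives the replicate number and bars are group means. For Hspa8 the tested row is drawn. Hsp90ab1 is highest and Bag3, Hspb8 and Hspb1 lie below 1 FPKM; the groups overlap except for Cryab and Hspb8.

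Together the members made up 0.149%, 0.280% and 0.391% of the FPKM outside mitochondrial genes in control replicates 1, 2 and 3, and 0.167%, 0.257% and 0.357% in fibril replicates 1, 2 and 3. This share, which a single factor per library cannot change, was slightly higher with fibrils in replicate 1 and slightly lower in replicates 2 and 3. It differed more between replicate numbers than between the groups. Hsp90ab1, Hspa8 and Dnaja1 together supplied most of it, up to 97.3% in fibril replicate 3.

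Hspa8, the constitutive Hsp70 that also uncoats clathrin vesicles and delivers substrates to chaperone-mediated autophagy (chromosome 8, 44990013 to 44993179 in the deposited table), had 69.3, 234 and 353 FPKM in control replicates 1, 2 and 3. It had 82.1, 226 and 631 FPKM in fibril replicates 1, 2 and 3. Fibril replicate 3 was the highest library and both replicate 1 libraries were the lowest, so the groups overlapped and the range over all libraries was 9.11-fold. The log2 difference, fibril minus control, was 0.34 (SE 0.85, 95% interval -1.58 to 2.26; limma adjusted p = 0.976). On leaving out single libraries it was -0.39 without fibril replicate 3, -0.34 without control replicate 1 and 1.07 without fibril replicate 1. Each such fit leaves the replicate numbers unbalanced between the groups, which alone can move a gene that varies with replicate number. With replicates 2 and 3 only, the difference was 0.39. The replicate block left the estimate at 0.34 and lowered its SE to 0.34 (limma adjusted p = 0.676). Within replicates 1, 2 and 3 the differences were 0.24, -0.05 and 0.84. A second row with this symbol (chromosome 5, 98998162 to 99179966) was listed at 0 in 5 libraries and at 0.225 FPKM in control replicate 3. How fragments shared by near-identical copies were assigned is not given in the sources used here, so Hspa8 and the Hsp90 genes are uncertain in absolute level.

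Hsp90ab1, the constitutive cytosolic Hsp90 (chromosome 9, 17817720 to 17823243), was the most abundant member. It measured 382, 532 and 608 FPKM across control replicates 1, 2 and 3, against 487, 514 and 972 FPKM across fibril replicates 1, 2 and 3. As for Hspa8, fibril replicate 3 stood highest, and the other 2 fibril libraries lay within the control range. The log2 difference was 0.33 (SE 0.55, 95% interval -0.92 to 1.58; limma adjusted p = 0.967) and was 0.006 without fibril replicate 3 and 0.13 without control replicate 1.

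Hsp90aa1, the stress-inducible Hsp90 (chromosome 6, 135107270 to 135112775), was listed far lower. It measured 0.417, 5.70 and 6.12 FPKM across control replicates 1, 2 and 3, against 1.08, 6.43 and 1.82 FPKM across fibril replicates 1, 2 and 3. Replicate 1 of both groups and fibril replicate 3 were low, and the remaining 3 libraries, from both groups, were alike. The log2 difference was -0.21 (SE 0.72; limma adjusted p = 0.985), with a 95% interval of -1.86 to 1.43. The sign turned positive on leaving out control replicate 2 (0.15) or 3 (0.19), and likewise fibril replicate 1 (0.17). Both replicate 1 values of Hsp90aa1 lay below what 3 fragments can be worth there, at most 1.25 FPKM in the control and 2.16 FPKM in the fibril library. Per length, Hsp90ab1 exceeded Hsp90aa1 by 79.8-fold to 535-fold in the other 4 libraries.

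**Figure D2:**
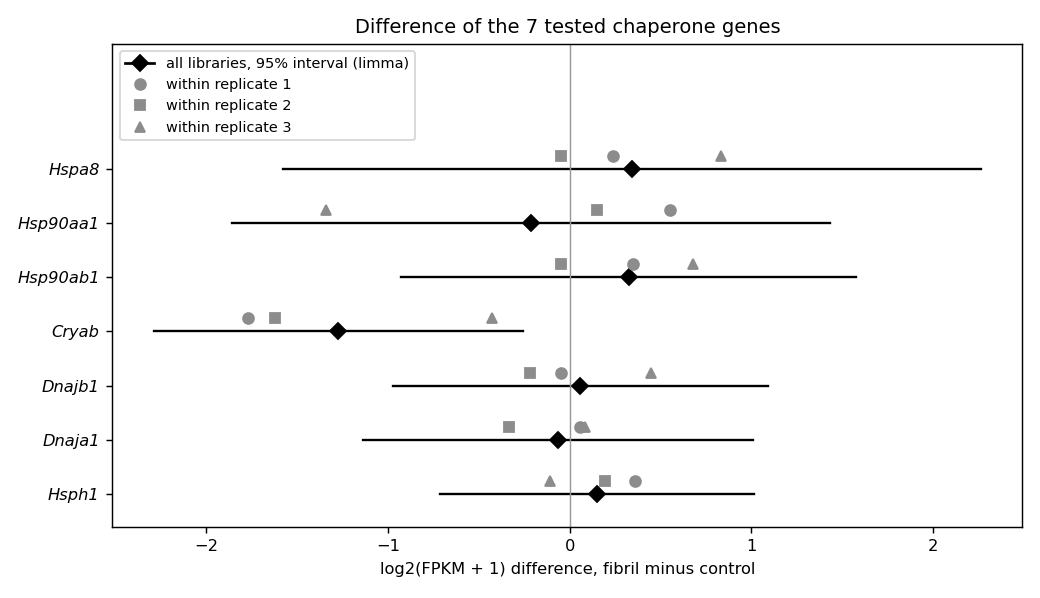
Difference in log2(FPKM + 1), fibril minus control, for the 7 tested chaperone genes: black diamonds and bars are the limma estimate over all libraries with its unadjusted 95% interval, and grey markers are the differences within replicates 1, 2 and 3. The interval spans 0 for 6 genes, and for Cryab it runs from -2.29 to -0.26.

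The J-domain genes, whose proteins hand substrates to Hsp70 and trigger its ATP hydrolysis, showed no difference beyond the spread between libraries. Dnaja1 (chromosome 5, 57028466 to 57039378) measured 175, 106 and 103 FPKM across control replicates 1, 2 and 3, against 182, 83.5 and 109 FPKM across fibril replicates 1, 2 and 3. It was highest in replicate 1 of both groups, the reverse of Hspa8, and its log2 difference was -0.06 (SE 0.47, 95% interval -1.14 to 1.01; limma adjusted p = 0.996). The difference was 0.18 without control replicate 1 and also 0.18 without fibril replicate 2. Dnajb1, a classical heat-inducible gene (chromosome 19, 24747177 to 24750919), measured 9.07, 18.4 and 15.1 FPKM across control replicates 1, 2 and 3, against 8.73, 15.7 and 20.9 FPKM across fibril replicates 1, 2 and 3. Replicate 1 was lowest in both groups and the groups overlapped. Its log2 difference was 0.06 (SE 0.45, 95% interval -0.97 to 1.09; limma adjusted p = 0.996), against -0.21 without control replicate 1, -0.20 without fibril replicate 3 and -0.005 without fibril replicate 2.

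The nucleotide exchange factors differed in level. Hsph1, the Hsp110 that releases ADP from Hsp70 (chromosome 12, 6322667 to 6341902), measured 13.1, 17.4 and 23.5 FPKM across control replicates 1, 2 and 3, against 17.1, 20.0 and 21.7 FPKM across fibril replicates 1, 2 and 3. It varied least of the members measured above 0 in all libraries (1.79-fold from lowest to highest), and every fibril value lay within the control range. Its log2 difference was 0.15 (SE 0.38, 95% interval -0.71 to 1.01; limma adjusted p = 0.976), and -0.05 without control replicate 1. Bag3, which links Hsp70 and Hspb8 to selective autophagy of misfolded proteins (chromosome 1, 199941160 to 199965191), was below the filter. It measured 0.477, 0.295 and 0.289 FPKM across control replicates 1, 2 and 3, against 0.821, 0.615 and 0.463 FPKM across fibril replicates 1, 2 and 3. As deposited, the fibril value was higher within each replicate number, but control replicate 1 lay above fibril replicate 3. Rescaled to equal totals without mitochondrial genes, the order turned in replicate 3 (0.389 FPKM in the control, 0.359 FPKM with fibrils). It held in replicates 1 and 2. Divided by the worth of a fragment in each library, the Bag3 values stood in the proportions 1.0, 2.5 and 3.0 in control and 1, 4.0 and 2.0 in fibril replicates 1, 2 and 3. Such small proportions leave few fragments per library if the lowest value is near 1 fragment, and a difference was not shown at this depth. Without a filter the log2 difference was 0.27 (SE 0.15; limma adjusted p = 0.912).

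Cryab, the small heat shock protein alpha-B crystallin (chromosome 8, 55178288 to 55182545), was the tested member with the widest difference. It measured 2.41, 3.06 and 2.60 FPKM across control replicates 1, 2 and 3, against 0, 0.319 and 1.68 FPKM across fibril replicates 1, 2 and 3. All 3 fibril libraries lay below all 3 controls, as in 5.3% of all tested genes, and the control mean of 2.69 ± 0.333 FPKM compared with a fibril mean of 0.666 ± 0.892 FPKM (SD, n = 3 each). The log2 difference was -1.27 (SE 0.45, 95% interval -2.29 to -0.26), with an unadjusted limma p of 0.0195 and an adjusted p of 0.96, and the exact permutation p was 0.1, the smallest that 3 against 3 libraries can give. The gene passed the filter through the control libraries, so its control levels decided that it was tested. All 3 replicate numbers showed the lower value, by -1.77, -1.62 and -0.43. Over 15 alternatives the difference ran from -2.72 (pseudocount 0.1) to -0.45 (pseudocount 5), with adjusted p from 0.424 to 1 (0.99997); since the groups do not overlap, its sign was fixed in all of them that keep the scaling.

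The weight of the zero in fibril replicate 1 depends on what a fragment was worth there. From the lowest value above 0, a fragment of Cryab was worth at most 1.71 FPKM in that library, and 3 fragments at most 5.12 FPKM, which is above every control value. In fibril replicates 2 and 3 the same bounds for 3 fragments were 0.957 and 1.44 FPKM. Without fibril replicate 1 the log2 difference was -0.97 (limma adjusted p = 0.806). These bounds take the lowest value above 0 as 1 fragment. Relative to it, Cryab stood at 2.4, 12.5 and 13.0 in control replicates 1, 2 and 3. It stood at 1 and 3.5 in fibril replicates 2 and 3. Some of these proportions are not near whole numbers, so the lowest value may hold more than 1 fragment. The bounds would then be lower. They cover counting error only, and the true number of fragments is unknown. In this bulk RNA, fewer cells of a type and less RNA per cell cannot be told apart. Hspb2, the small heat shock gene that neighbours Cryab (chromosome 8, 55176846 to 55177818), was listed at 0 in all 6 libraries. Cell type markers also differed between the groups. Of 10 tested astrocyte markers, 8 were lower with fibrils (median log2 difference -1.0), while the summed astrocyte level ran from 244 to 262 FPKM in controls and from 136 to 293 FPKM with fibrils. Gjb6 was at 0 in all libraries, and Gfap, the astrocyte intermediate filament, measured 0.643, 0.370 and 0.733 FPKM across control replicates 1, 2 and 3, against 3.69, 6.20 and 24.8 FPKM across fibril replicates 1, 2 and 3. All 8 tested markers of differentiating oligodendrocytes were higher (median 2.18), with sums from 976 to 4775 FPKM in controls and from 3788 to 8263 FPKM with fibrils. The part of these cell types in the Cryab difference was not tested.

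Hspb8 and Hspb1, the other small heat shock genes among the members, were close to the limit of detection. Hspb8, the partner of Bag3 (chromosome 12, 45905370 to 45920013), had 0.994, 0.248 and 0.608 FPKM in controls and was listed at 0 in all 3 fibril libraries. In proportion to the worth of a fragment, the 3 control values stood at 1, 1.01 and 3.03. A library listed at 0 allows 3 fragments, which for Hspb8 is at most 5.14, 0.962 and 1.45 FPKM in fibril replicates 1, 2 and 3. Those limits exceed all 3 control values in fibril replicates 1 and 3 and 2 of them in fibril replicate 2. They take the lowest value above 0 as 1 fragment and are lower if it holds more. A lower level of Hspb8 was therefore not shown by these zeros. Without a filter the Hspb8 row had an unadjusted limma p of 0.00725 and an adjusted p of 0.876. Hspb1, known as Hsp25 in rodents (chromosome 12, 23839398 to 23841049), measured 0, 0.185 and 0 FPKM across control replicates 1, 2 and 3, against 0, 0.241 and 0.724 FPKM across fibril replicates 1, 2 and 3. Its 3 values above 0 stood in the proportions 1.0, 1 and 2.0. An exact 0 in this table can also be a failed estimate, since Hprt1 and Rps6, genes that every cell uses, were listed at 0 in all 6 libraries.

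The sign of a small difference depended on how libraries were scaled. When the libraries were rescaled to equal totals without mitochondrial genes, the median of all tested genes moved from -0.04 to -0.30, and 2 of the 7 members were positive in place of 4. Relative to the median of all genes, 4 of 7 members lay above it under both scalings. A single factor per library moves all genes nearly alike, so this sameness was largely fixed in advance. The rescaled differences were 0.03 for Hspa8, 0.02 for Hsp90ab1, -0.23 for Dnajb1, -0.37 for Dnaja1, -0.15 for Hsph1, -0.45 for Hsp90aa1 and -1.45 for Cryab. Under quantile normalization Hspa8 was at -0.16 and Hsp90ab1 at -0.24. Cryab was at -1.27 as deposited and at -1.01 under quantile normalization. It passed the filter through its control libraries and its groups did not overlap, so a kept sign is no separate support for a difference.

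**Figure D3:**
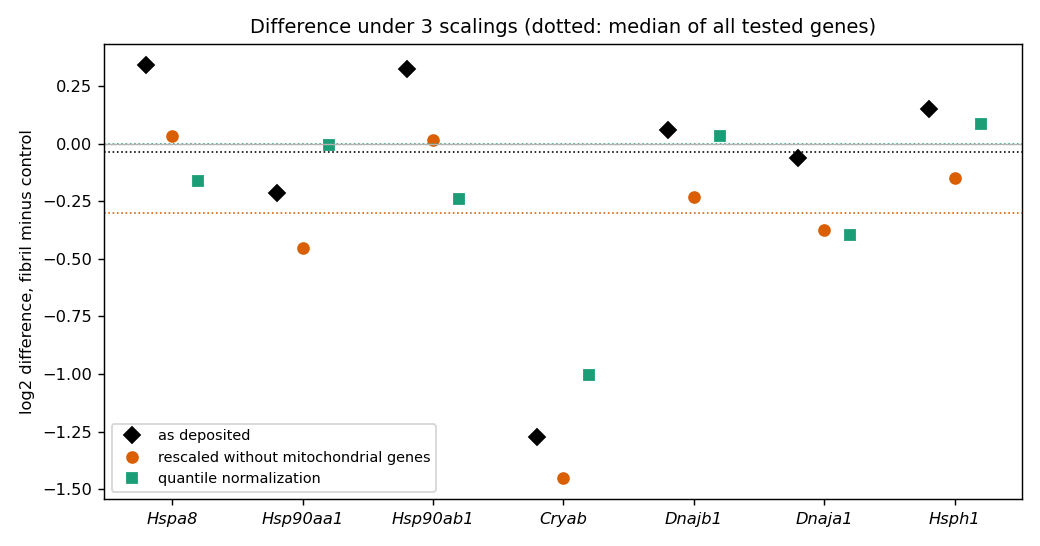
Difference in log2(FPKM + 1), fibril minus control, of the 7 tested chaperone genes with values as deposited (diamonds), rescaled to equal totals without mitochondrial genes (circles) and quantile normalized (squares); dotted lines mark the median of all tested genes in each scaling. Cryab lies between -1.45 and -1.01, and Hspa8 and Hsp90ab1 change sign under quantile normalization.

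The rest of the cytosolic chaperone network was examined through a list of 65 genes in 9 classes, of which 64 symbols were found on 66 rows, 52 of them tested; Hspe1 matched no row and was not analysed here. By limma, 0 of 52 passed an adjusted p of 0.05 without a block or with it. At an unadjusted p under 0.05, 1 passed without the block (Dnajb2) and 3 with it, beside 4.02% and 9.84% of all genes in the same fits. As deposited, 38 were higher and 14 lower with fibrils, with a median of 0.23 beside -0.04 for all tested genes. Rescaling without mitochondrial genes shifts all genes downward, and 20 of 52 were then higher (median -0.07, beside -0.30 for all tested genes), as were 2987 of 10766 genes in place of 5062. Above the median of all tested genes lay 40 of 52, both as deposited and after rescaling, a sameness that the shared shift largely fixed in advance. Under quantile normalization 26 of 52 were higher (median 0.006). The median difference within replicates 1, 2 and 3 was 0.09, -0.02 and 0.51, so it was largest in replicate 3.

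**Figure D4:**
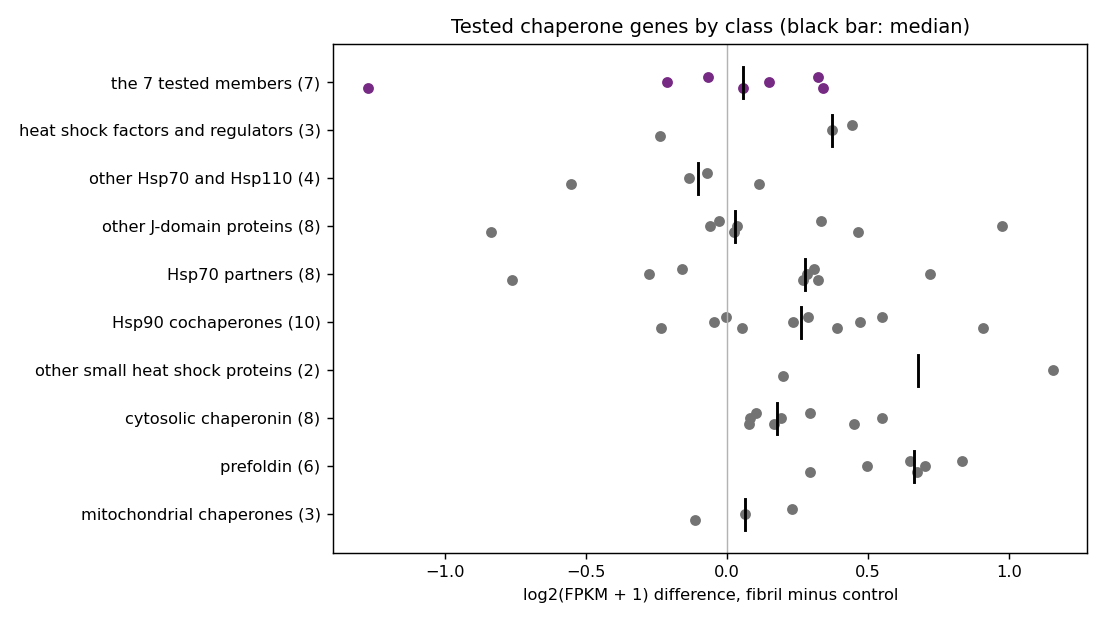
Difference in log2(FPKM + 1), fibril minus control, of the tested chaperone genes by class, with the number tested in brackets and a black bar at the median of each class; 0 of the genes passed an adjusted p of 0.05. The 6 prefoldin genes lie to the right of 0 (median 0.66) and Cryab lies farthest to the left at -1.27.

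Hsf1, which encodes the factor that turns on the heat shock genes, measured 4.07, 10.5 and 8.07 FPKM across control replicates 1, 2 and 3, against 7.84, 12.0 and 9.06 FPKM across fibril replicates 1, 2 and 3. As deposited, the value with fibrils was higher within each replicate number, the groups overlapped, and the log2 difference was 0.37 (SE 0.43, limma adjusted p = 0.96). This difference depended on the scaling: it was 0.09 when rescaled without mitochondrial genes and 0.45 under quantile normalization. The stress-inducible Hsp70 genes Hspa1a (2 rows) and Hspa1b, the usual reporters of a heat shock response, were listed at 0 in all 6 libraries. As these genes are near-identical copies and a 0 can be a failed estimate, their level is uncertain.

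Dnajb2, a J-domain protein best known from neurons, had the smallest p of the network without a block, and Hspb11 (0.0162, beside 0.0188 for Dnajb2) with it, both by limma and unadjusted. It measured 14.5, 14.1 and 12.2 FPKM across control replicates 1, 2 and 3, against 21.7, 24.2 and 40.0 FPKM across fibril replicates 1, 2 and 3. All 3 fibril libraries lay above all 3 controls, as in 4.24% of tested genes, or 457 genes. The log2 difference was 0.98 (SE 0.39), with an unadjusted p of 0.0334 and an adjusted p of 0.96 by limma. Bag1, another exchange factor of Hsp70, measured 47.7, 23.8 and 19.9 FPKM across control replicates 1, 2 and 3, against 53.1, 31.5 and 63.3 FPKM across fibril replicates 1, 2 and 3. Pfdn6, a prefoldin subunit, had 62.3, 82.3 and 51.9 FPKM against 84.6, 76.6 and 238 FPKM, and fibril replicate 3 alone lay far from the rest.

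Toward lower values the smallest p belonged to Dnajc5, Hspa4l, Bag4 and Bag2. Dnajc5, the cysteine string protein of secretory vesicles, measured 46.1, 48.4 and 52.3 FPKM across control replicates 1, 2 and 3, against 45.1, 47.6 and 8.75 FPKM across fibril replicates 1, 2 and 3. Bag4 showed the same single low library, with 5.22, 5.68 and 7.41 FPKM against 6.02, 5.24 and 0.646 FPKM. For both genes the difference came from fibril replicate 3, and the other 2 replicate numbers differed by at most 0.17 on the log2 scale. Hspa4l, an Hsp110 relative, had 7.80, 5.56 and 8.0 FPKM against 6.83, 4.50 and 2.83 FPKM. Bag2, an inhibitor of the ubiquitin ligase Stub1, had 2.28, 2.87 and 2.26 FPKM against 1.31, 2.12 and 2.25 FPKM. It was lower without overlap by a narrow margin, as in 5.3% of all tested genes. In fibril replicate 1, 3 fragments of Bag2 can be worth at most 3.94 FPKM, which is above every Bag2 value. The adjusted p of the genes named here for their smallest p lay between 0.96 and 0.964 by limma.

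Rescaling moves all genes nearly alike, so counts above the median of all tested genes were largely fixed to stay the same. By class, these counts were the same as deposited and after rescaling. They were 6 of 6 prefoldin genes, 8 of 8 subunits of the cytosolic chaperonin, the ring that folds actin and tubulin, 8 of 10 Hsp90 cochaperones, 5 of 8 Hsp70 partners and 6 of 8 other J-domain genes. They were 1 of 4 other Hsp70 and Hsp110 genes, 2 of 3 heat shock factors and regulators, 2 of 3 mitochondrial chaperones and both tested genes (Hspb6 and Hspb11) of the 7 other small heat shock genes. The class median as deposited was 0.66 for prefoldin, 0.18 for the chaperonin, 0.26 for the Hsp90 cochaperones, 0.28 for the Hsp70 partners, 0.03 for the J-domain genes and -0.10 for the Hsp70 and Hsp110 genes. Under quantile normalization, which leaves the median of all genes near 0, 6 of 6 prefoldin genes but 2 of 8 chaperonin genes were positive. Within replicates 1, 2 and 3 the class median was 0.25, 0.03 and 1.64 for prefoldin and -0.07, -0.10 and 0.70 for the chaperonin. For the Hsp90 cochaperones it was 0.18, 0.003 and 0.72, and for the other J-domain genes 0.20, 0.15 and 0.19. In every class except the other J-domain genes, this median was largest in replicate 3. A large value there can come from either library of the pair. Control replicate 3 was the lowest library for Pfdn1, Pfdn2, Pfdn4, Pfdn5 and Pfdn6, though not for Vbp1. In all 9 classes 0 genes passed the threshold.

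Genes whose pattern over the 6 libraries was nearest to a member were found by the root mean square distance of centred log2(FPKM + 1) values, among 7482 tested genes with a mean of at least 5 FPKM. Slc39a7, Plbd2 and Slc27a4 were nearest to Hspa8 (distances 0.11, 0.14 and 0.15), whose own spread was 1.11 on this scale. Uspl1, Pik3ip1 and Mkrn1 were nearest to Hsp90ab1 (0.058 to 0.064), and Gnai2, Itfg1 and Rhot1 to Dnaja1 (0.069 to 0.078). For Dnajb1 they were Nsmce4a, Dus3l and Gnptg, for Hsph1 Ddx42, Tnfaip1 and Wwp2, and for Hsp90aa1 Pura, Arhgap33 and Cux2. Cryab had no near neighbour among these candidates, as Sdc2, Prss23 and Nrarp lay at 0.30 to 0.35 beside a spread of 0.77. Its own mean of 1.68 FPKM lies below the 5 FPKM asked of candidates, so genes at its level were not compared. Among the members, Hsp90ab1 and Hsph1 were closest (0.27) and Hspa8 and Dnaja1 farthest apart (1.45). With 6 libraries, and replicate 1 apart from the rest, these distances describe the libraries only.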

How the data were processed

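The authors deposited 1 FPKM value per gene and library, per the file headers. Per the labels' protocols, total RNA went through a silica column and a strand-specific library kit. The submitters' processing notes name Trimmomatic and FastQC. Their versions, the aligner, quantifier, build and annotation are not given in any source used here, and gene coordinates are those of the table. The number of other columns of per-sample values was 0.

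The analysis scale was log2(FPKM + 1), which understates changes of low genes, and a gene entered when at least 3 libraries reached 1 FPKM. The main test was limma 3.58.1 (R 4.3.3) with a mean-variance trend, two-sided, with p-values adjusted by Benjamini-Hochberg over all tested genes and a threshold of 0.05. It was also run on simulated data with independent noise per gene, which hold no shift shared by the replicate 1 libraries. That run therefore does not tell how many real changes the test misses in these libraries. Single genes also had a two-sided exact permutation test (Python 3.11.15), whose smallest p is 0.1. FPKM hold no fragment numbers, so depth is unknown. The relative worth of 1 fragment came from pairwise ratios of genes below 4 FPKM: library offsets were chosen to bring the most ratios to 1 (tolerance 0.03, log2), and 7.57% of ratios met this.

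Deviations from the group means correlated across genes between libraries of one number (0.747, 0.364 and 0.216, each over the 0.1 that counts as pairing here), though no label states a pairing. The crossed combinations of numbers 2 and 3 gave higher values (0.500 for the third control library and 0.433 for the second), so mainly replicate 1 stood apart. A fit with a replicate block was run. Other pseudocounts, filters, scalings and left-out libraries were alternatives.

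The members, lists and tests were chosen with earlier results of these data known. Named were all 10 members; Hsf1, Hspa1a and Hspa1b; the 4 smallest p in each direction of the network list, of which 1 gene is not reported here; and the 3 genes nearest to each tested member. Marker genes and other genes named fall outside this rule.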

Additional observations from a re-analysis of the deposited data

How the results depend on the processing

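Under every alternative 0 members and 0 network genes passed an adjusted p of 0.05, or 0.1 where that was the alternative. Over all genes, 0 passed without a block and 12 with the replicate block, 15 with the replicate block and quantile normalization, 1 with the replicate block and rescaling without mitochondrial genes, 2 at an adjusted p of 0.1, and 0 to 3 when single libraries were left out (3 without fibril replicate 3). Differences of the members that changed sign were all uncalled, and the cause was not tested. Under quantile normalization, with and without the replicate block, Hspa8 was at -0.16 and Hsp90ab1 at -0.24. Rescaled without mitochondrial genes, with and without the replicate block, Dnajb1 was at -0.23 and Hsph1 at -0.15. Leaving out single libraries moved Hspa8 between -0.39 and 1.07, Hsp90aa1 between -0.97 and 0.19, Dnajb1 between -0.21 and 0.38, Dnaja1 between -0.37 and 0.18 and Hsph1 between -0.047 and 0.35. Fits of this kind leave the replicate numbers unbalanced between the groups, so these ranges also hold the spread between replicate numbers. With values at 1 FPKM or more in all 6 libraries required, Cryab and Hsp90aa1 were not tested. The replicate block changed no call of a member. Depth limits Bag3, Cryab, Hspb1 and Hspb8, and it limits every gene in replicate 1, low genes most.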

Other observations

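Ratios between members within a library, looked at after the values were seen, do not change when a library is multiplied by a single factor. The ratio of Hspa8 to Dnaja1 was 0.396, 2.21 and 3.44 in control replicates 1, 2 and 3, and 0.451, 2.71 and 5.78 in fibril replicates 1, 2 and 3. It was higher with fibrils within each replicate number, while the spread between replicate numbers was wider than any of these differences. The ratio of Hspa8 to Hsph1 was 5.29, 13.5 and 15.0 in the control and 4.8, 11.3 and 29.1 in the fibril group.

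Several chaperone genes of the network list were highest in replicate 1 of both groups. Hspb11, grouped here by its symbol although its protein is best known from intraflagellar transport, measured 148, 19.8 and 10.9 FPKM across control replicates 1, 2 and 3, against 223, 33.6 and 51.6 FPKM across fibril replicates 1, 2 and 3. Hsbp1, which encodes a small binding protein of heat shock factor 1, had 965, 299 and 194 FPKM against 1042, 322 and 421 FPKM. Ptges3, the Hsp90 cochaperone p23, had 401, 107 and 90.7 FPKM against 396, 115 and 157 FPKM.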
